A study of Mus musculus with 6 samples.

Results

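Chemokines and their receptors were taken as the 53 genes on the array whose symbols are Ccl, Cxcl, Ccr or Cxcr with a number, together with Cx3cl1, Cx3cr1, Xcl1, Xcr1 and Ackr1 to Ackr4. They are 53 of the 18193 genes with a probe set of their own. The study set hearts of TNFαDes-/- mice, which lack desmin and overexpress TNF-α in the heart, against hearts of Des-/- mice, which lack desmin only. Each group had 3 Affymetrix arrays, and all mice were 3 months old. TNFαDes-/- mice were of mixed 129SV/C57 strain and Des-/- mice of strain 129SV, and the effects of strain and of transgene cannot be told apart. The sources used here do not name the promoter that drives the transgene. The sources differ on what an array is: the series text gives n = 3 for the mice, while the label protocol describes RNA of 3 hearts pooled for each genotype. If the arrays of a group share a pool, the p-values and intervals reflect array-to-array spread alone, possibly a technical one.

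Chemokines are small secreted proteins that guide leukocytes along gradients to sites of damage. They fall into the CC, CXC, XC and CX3C families by the spacing of their first cysteines, and they signal through receptors coupled to inhibitory G proteins, while the atypical receptors Ackr1 to Ackr4 bind, clear or present them without that signal. TNF-α is a textbook inducer of many inflammatory chemokines through the transcription factor NF-κB, and in the heart Ccl2 and its receptor Ccr2 are known for the entry of monocytes from blood.

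All values are deposited log2 values of the brightest probe set of each gene. Each change is TNFαDes-/- minus Des-/-, tested with limma and adjusted by Benjamini-Hochberg across the 18193 genes, and "past the test" means an adjusted p below 0.05. The array medians were 5.02 to 5.07 in TNFαDes-/- and 5.04 to 5.08 in Des-/-. Des-/- replicate 1 stood apart from the other 2 Des-/- arrays: the SD of its log2 differences from them was 0.336 and 0.341, against 0.157 between those 2. The 99th percentile of log2 values was 12.26 to 12.31 in TNFαDes-/-, and 12.27, 11.75 and 11.69 on Des-/- replicates 1, 2 and 3, so main changes are also given after quantile normalization, which puts all arrays on a single distribution. A sign of RNA quality moved with the group, as Gapdh probe sets at the 3' end over those at the 5' end gave a log2 ratio of 0.32 ± 0.04 in TNFαDes-/- and -0.01 ± 0.03 in Des-/- hearts (SD, n = 3 each); its part in the results below was not tested. Tnf itself averaged 5.94 ± 0.19 in TNFαDes-/- and 5.87 ± 0.09 in Des-/- hearts, a change of 0.07 ± 0.12 (SE) that was not past limma's test (adjusted p = 0.746), and whether its probe set reads the transgene was not tested. Des, the gene that both genotypes lack, read 8.75, 8.88 and 8.73 in TNFαDes-/-, against 8.42, 8.43 and 8.33 in Des-/- hearts, above every array's median and higher by 0.39 ± 0.10 (SE, limma adjusted p = 0.0219). Whether its probe set lies outside the deleted part was not tested, so neither gene checks the labels here.

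A small set of the family changed, in both directions, and most did not pass the test. On the brightest probe set of each gene, the ligands Ccl6, Ccl9, Cxcl12 and Cxcl13 rose in TNFαDes-/- hearts. The ligand Ccl8 and the receptor Ccr2 fell. The other probe sets of Cxcl12 changed by -0.43 and -0.44, and that of Cxcl13 by 0.25, which was not past the test. The 6 genes past the test are 11.3% of the 53 members, where 21.3% of all genes passed in either direction (15.2% higher, 6.05% lower). All 6 lay above the median of every array. Of the 53 members, 22 did so, 8 lay above the median of some arrays, and 23 lay above none, so that with no detection calls in the table their expression is not established. Among the 22 brighter members 27.3% passed, where 30.1% of all 10920 genes above every median did (23.0% higher, 7.16% lower). None of the dimmer members passed, where 7.96% of the 7273 other genes did. After quantile normalization 4 members rose and 4 fell, where 22.5% of all genes passed (12.0% higher, 10.4% lower). The median change was -0.07 over the 53 members and 0.04 over all genes, and -0.06 and -0.0038 after quantile normalization. Without Des-/- replicate 1, 4 members rose and 3 fell, where 4257 and 1557 of the 18193 genes did. With Des-/- replicates 2 and 3 left out together the median change over the 53 members was -0.02. In that fit the lone Des-/- array is assumed to vary like the TNFαDes-/- arrays.

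**Figure D1:**
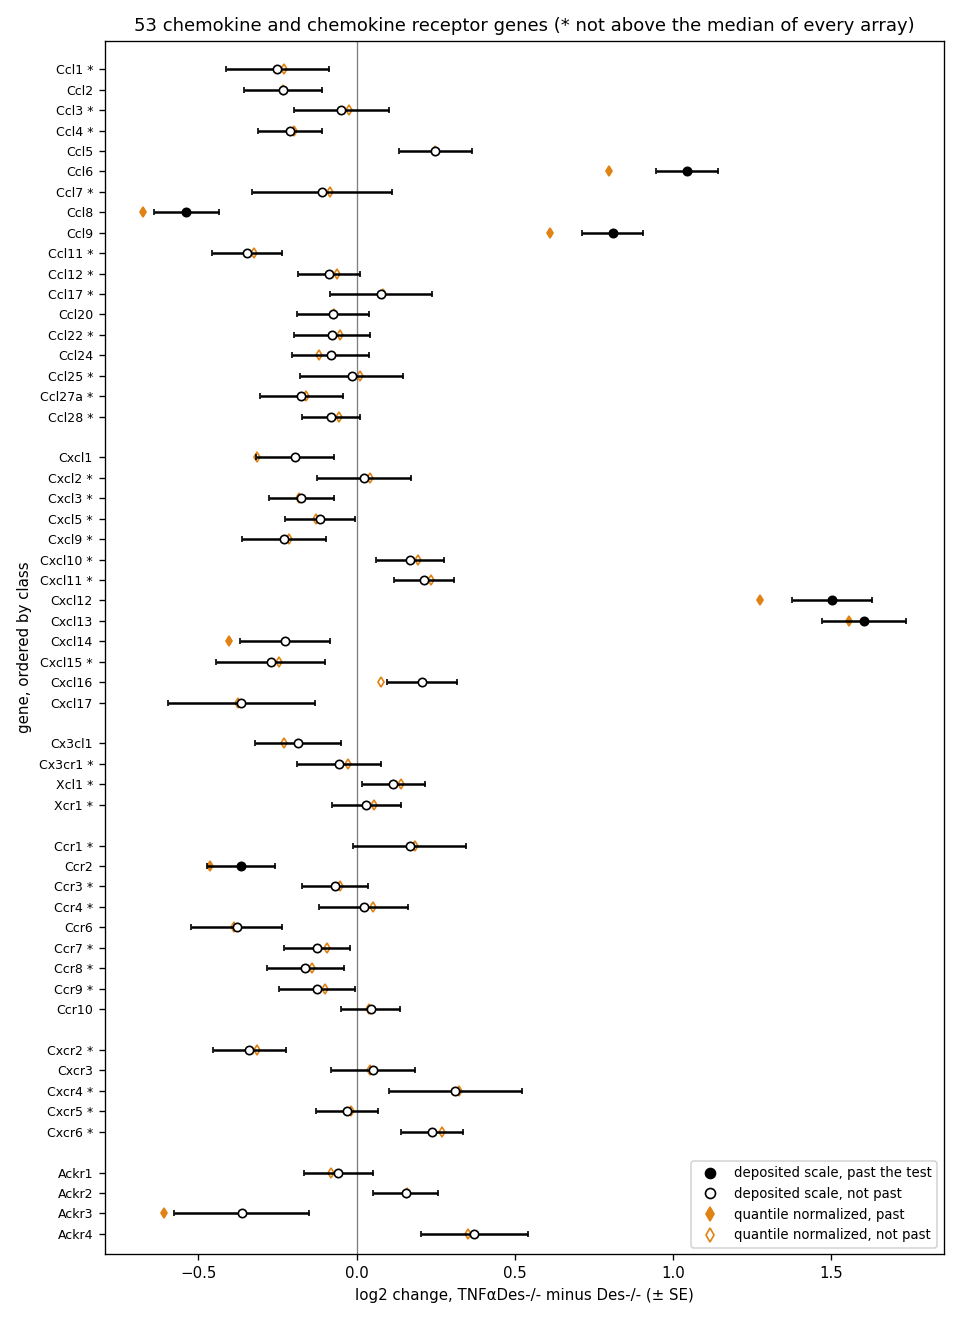
Log2 change (x axis, TNFαDes-/- minus Des-/-, with SE) of each of the 53 genes, grouped by class down the page. Circles are the deposited scale and diamonds quantile-normalized values, filled where past the test, and 4 genes stand to the right with changes of 0.81 to 1.60 while the genes not past the test lie between -0.38 and 0.37.

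Ccl6 and Ccl9 are CC chemokines found in rodents, made by myeloid cells, and both bind the receptor Ccr1. Ccl6 read 10.29, 10.10 and 10.12 on the TNFαDes-/- arrays, against 9.18, 9.12 and 9.07 on the Des-/- arrays. Each TNFαDes-/- array was above each Des-/- array, and the 2.06-fold rise (log2 change 1.04 ± 0.10 SE, limma adjusted p = 0.000298) was far larger than the spread within either group. Ccl9 read 9.25, 9.27 and 9.38 in TNFαDes-/-, against 8.56, 8.44 and 8.48 in Des-/- hearts, again without overlap, and was 1.75-fold higher (0.81 ± 0.10, adjusted p = 0.000822). The second probe set of each gene rose as well, by 1.10 ± 0.13 for Ccl6 and 0.71 ± 0.13 for Ccl9, both past limma's test over all probe sets (adjusted p = 0.00126 and 0.00949). After quantile normalization the changes were 0.80 and 0.61, and both calls held with each array left out in turn. Their receptor Ccr1 lay above the median of a single array, TNFαDes-/- replicate 3, with a change of 0.17 ± 0.18 (adjusted p = 0.565).

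Ccl9 and Ccl6 are neighbours on chromosome 11, with no other protein-coding gene of the RefSeq annotation between them. Their upstream sequences are shown because the genes lie side by side and moved together. Each is the 250 bases before the start in RefSeq GRCm38.p6, on the gene's own strand, for Ccl6 chr11:83593088-83593337, minus strand, and for Ccl9 chr11:83578637-83578886, minus strand. Capitals mark matches to the 10-base NF-κB consensus on either strand.
Ccl6: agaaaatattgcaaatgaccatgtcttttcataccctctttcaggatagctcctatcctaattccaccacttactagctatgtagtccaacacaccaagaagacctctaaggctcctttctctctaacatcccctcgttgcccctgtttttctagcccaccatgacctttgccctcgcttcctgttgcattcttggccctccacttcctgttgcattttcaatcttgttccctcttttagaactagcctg
Ccl9: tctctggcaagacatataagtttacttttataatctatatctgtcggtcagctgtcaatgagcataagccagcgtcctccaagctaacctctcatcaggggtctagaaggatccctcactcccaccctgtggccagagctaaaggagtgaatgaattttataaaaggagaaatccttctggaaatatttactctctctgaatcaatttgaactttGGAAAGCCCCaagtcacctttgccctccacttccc
A match stood in the Ccl9 window, on its minus strand, and none in that of Ccl6. A match is a description of letters and not a bound site, and no match says only that these letters are not in the window.

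Cxcl12, which holds haematopoietic and endothelial precursors in their niches and signals through Cxcr4, gave opposite answers on different probe sets. On the brightest it read 10.28, 10.09 and 10.31 in TNFαDes-/-, against 8.95, 8.62 and 8.59 in Des-/- hearts, 2.84-fold higher with no overlap (1.50 ± 0.13, limma adjusted p = 0.000164). On the next it read 9.25, 9.09 and 9.23 in TNFαDes-/-, against 9.72, 9.59 and 9.53 in Des-/- hearts, a change of -0.43 ± 0.10 that passed limma's test over all probe sets (adjusted p = 0.0256), also with no overlap. The third, at means of 5.58 in TNFαDes-/- and 6.02 in Des-/- hearts, gave -0.44 ± 0.12 and missed the threshold (adjusted p = 0.0504), though it passed after quantile normalization (-0.45, adjusted p = 0.0382). The mean of the probe sets was 0.21 (adjusted p = 0.174). The rise is therefore that of a single probe set, and which transcripts each probe set reads was not tested.

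Cxcl13, which draws B cells into lymphoid follicles through Cxcr5, had the largest change among the 53 genes. Its brightest probe set read 7.28, 6.89 and 7.17 in TNFαDes-/-, against 5.49, 5.66 and 5.37 in Des-/- hearts. The groups did not overlap, and the change was 1.60 ± 0.13 (limma adjusted p = 0.000149; 1.56 after quantile normalization). The Des-/- values lay near the array medians, so the fold of 3.04 is uncertain. The other probe set read 6.44, 6.26 and 6.30 in TNFαDes-/-, against 5.74, 6.31 and 6.20 in Des-/- hearts. There the groups overlapped, with Des-/- replicate 1 low, and the change of 0.25 ± 0.15 was not past limma's test (adjusted p = 0.33 over all probe sets). The receptor Cxcr5 lay below the median of every array, with a change of -0.03 ± 0.10.

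The stretches before the starts of these CXC ligands are shown beside those of Ccl6 and Ccl9, as the other genes whose brightest probe set rose. Cxcl12 is at chr6:117168285-117168534, plus strand, and Cxcl13 at chr5:95956689-95956938, plus strand, with the same build and length.
Cxcl12: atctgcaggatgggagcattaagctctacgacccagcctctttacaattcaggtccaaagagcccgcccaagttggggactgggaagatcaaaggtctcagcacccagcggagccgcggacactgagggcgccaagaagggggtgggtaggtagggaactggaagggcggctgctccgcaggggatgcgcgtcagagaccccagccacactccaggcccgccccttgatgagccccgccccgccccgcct
Cxcl13: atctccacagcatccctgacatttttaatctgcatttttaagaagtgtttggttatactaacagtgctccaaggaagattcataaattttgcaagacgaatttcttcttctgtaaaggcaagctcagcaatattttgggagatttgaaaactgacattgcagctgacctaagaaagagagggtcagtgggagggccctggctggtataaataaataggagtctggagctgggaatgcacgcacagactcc
Neither holds a match to the NF-κB consensus, so neither line has capitals.

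**Figure D2:**
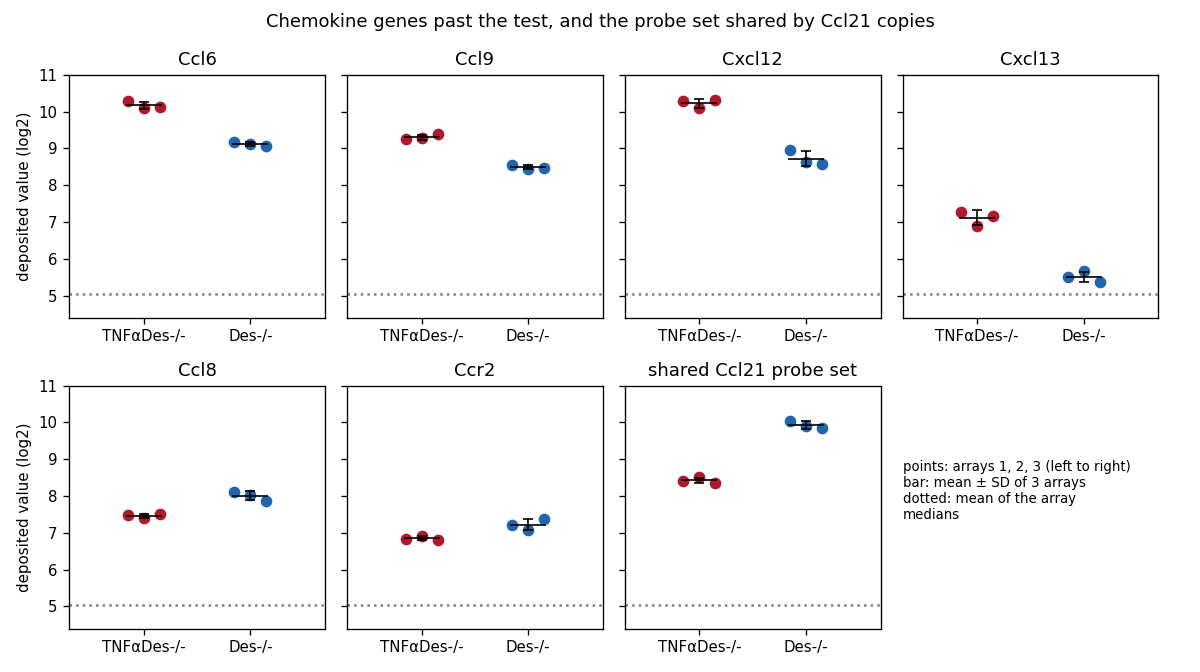
Deposited log2 values (y axis) on each array for the 6 genes past the test and for a probe set shared by copies of Ccl21, with TNFαDes-/- in red on the left and Des-/- in blue on the right, and bars for mean and SD (n = 3). In every panel the 3 arrays of a group lie to one side of all arrays of the other, with the shared Ccl21 probe set at means of 8.42 in TNFαDes-/- and 9.93 in Des-/-.

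Ccl8, a monocyte chemoattractant that in mice also acts on Ccr8, fell. It read 7.47, 7.40 and 7.52 in TNFαDes-/-, against 8.12, 8.02 and 7.88 in Des-/- hearts. The groups did not overlap, and the gene was 1.45-fold lower (-0.54 ± 0.10 SE, limma adjusted p = 0.0074; -0.68 after quantile normalization). The call held with each array left out in turn, at changes between -0.60 and -0.48.

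Ccr2, the receptor of inflammatory monocytes for Ccl2, Ccl7 and Ccl12, was lower on each of its 4 probe sets. The brightest read 6.84, 6.92 and 6.81 in TNFαDes-/-, against 7.21, 7.09 and 7.38 in Des-/- hearts. The groups did not overlap, but the change of -0.37 ± 0.11 passed only narrowly (limma adjusted p = 0.0421), and it missed the threshold with the replicate block (adjusted p = 0.0592), with median centring (0.0542) and without any array other than Des-/- replicate 1 (up to 0.165). The other 3 probe sets, dimmer and below the median of each TNFαDes-/- array, fell by 0.97, 0.70 and 0.70 on the log2 scale, each past limma's test over all probe sets (adjusted p = 0.0141, 0.00539 and 0.0188) and each without overlap. In whole hearts, fewer cells of a type and less RNA per cell cannot be told apart.

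A probe set that lists 9 genes and loci, copies of Ccl21 among them, names no single gene and is outside the 53. Ccl21 is the ligand that leads dendritic and T cells into lymphatic vessels through Ccr7. The probe set read 8.41, 8.51 and 8.36 in TNFαDes-/-, against 10.05, 9.90 and 9.85 in Des-/- hearts, 2.85-fold lower with no overlap (-1.51 ± 0.10 SE, limma adjusted p = 0.000124 over all probe sets, where 14.9% passed, 9.94% higher and 4.93% lower). After quantile normalization it stood at -1.74. The C57 part of the strain background is present only in TNFαDes-/- mice, and here too the 2 factors cannot be told apart. The probe set shared by Ccl19 copies, the other Ccr7 ligand, gave 0.0046 ± 0.14, and the 2 shared by Ccl27 copies gave 0.22 ± 0.13 and -0.17 ± 0.12, with no call. Ccr7 itself lay below the median of every array.

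**Figure D3:**
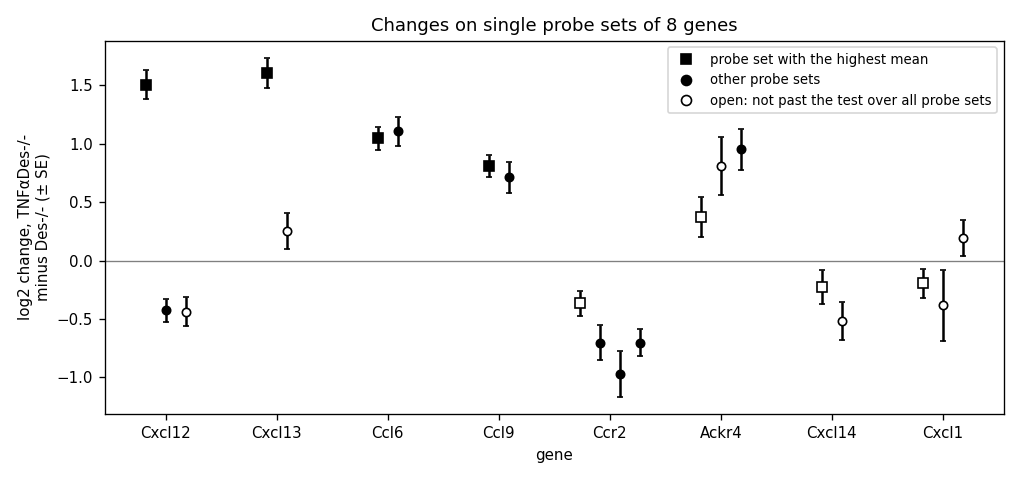
Log2 change (y axis, TNFαDes-/- minus Des-/-, with SE) on every probe set of 8 genes along the x axis. Squares are the brightest probe set of a gene and filled symbols passed the test over all probe sets: the Cxcl12 square stands at 1.50 with the other probe sets at -0.43 and -0.44, while the Ccr2 probe sets all lie below 0 and those of Ccl6 and Ccl9 all above it.

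Of 20 members with more than 1 probe set, 12 had the same sign of change on all of them. The atypical receptor Ackr4, which clears Ccl19, Ccl21 and Ccl25, was not past the test on its brightest probe set (0.37 ± 0.17, limma adjusted p = 0.154). Its dimmest read 5.43, 5.46 and 5.15 in TNFαDes-/-, against 4.67, 4.50 and 4.02 in Des-/- hearts, a rise of 0.95 ± 0.17 past limma's test over all probe sets (adjusted p = 0.00931), and the remaining one gave 0.81 ± 0.25 (adjusted p = 0.0647). On the dimmest, all Des-/- values lay below the medians of their arrays, so the size of that rise is uncertain. The mean of the Ackr4 probe sets also passed (0.71, limma adjusted p = 0.0261).

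Ligands of inflammation, the list closest to textbook TNF-α and NF-κB targets, held no member past the test upward. Of 13 measured, 0 rose and 1, Ccl8, fell (median change -0.12, and -0.13 after quantile normalization), where 15.2% of all genes rose and 6.05% fell. Ccl2, the main attractant of Ccr2 monocytes, read 5.25, 5.61 and 5.58 in TNFαDes-/-, against 5.66, 5.81 and 5.68 in Des-/- hearts. The TNFαDes-/- arrays were all below the Des-/- arrays by a small step, and the change of -0.23 had a 95% interval of -0.51 to 0.05 (limma adjusted p = 0.222). Cxcl1, a neutrophil attractant, on an _x_at probe set, which may read related sequences too, read 7.40, 7.36 and 7.12 in TNFαDes-/-, against 7.38, 7.66 and 7.42 in Des-/- hearts, with overlap and a change of -0.19 (interval -0.47 to 0.08, limma adjusted p = 0.306). Its other probe sets gave 0.19 ± 0.15 and -0.38 ± 0.30, so the sign depends on the probe set. Ccl5, an attractant of T cells, read 5.72, 5.98 and 5.61 in TNFαDes-/-, against 5.51, 5.51 and 5.54 in Des-/- hearts. All TNFαDes-/- arrays were above the Des-/- arrays, and the change of 0.25 (interval -0.01 to 0.51, limma adjusted p = 0.168) was not past the test. Ccl20, the ligand of Ccr6, gave -0.07 (interval -0.33 to 0.18). The membrane-bound Cx3cl1 gave -0.19 (-0.50 to 0.13) on its brightest probe set and 0.12, 0.08 and 0.04 on the others, none past the test. Ccl3, Ccl7, Ccl12, Cxcl2, Cxcl3 and Cxcl5 lay below the median of every array, where a change at low level could go unseen.

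The interferon-induced ligands of Cxcr3 were dim. Of Cxcl9, Cxcl10 and Cxcl11, 0 passed the test, with changes of -0.23 ± 0.13, 0.17 ± 0.11 and 0.21 ± 0.09 (limma adjusted p = 0.266, 0.311 and 0.147). Cxcl10 and Cxcl11 lay below every array's median, and Cxcl9 above 3 of the 6. Over all genes 21.3% passed, and 7.96% of those not above every median.

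The NF-κB consensus was looked for in RefSeq promoter windows of 250 bases before to 50 after the start, on both strands. Of the 53 genes, 40 have at least 1 window, 44 in all. A match stood in 12 of these windows (27.3%), and in 8.46% of all 32851 windows. The genes were Ackr2, Ccl1, Ccl20, Ccl27a, Ccl9, Ccr1, Ccr3, Ccr6, Cxcl1, Cxcl2, Cxcl3 and Cxcl10. Of these only Ccl9 passed the expression test, where 21.3% of all genes did. Ccr3, Cxcl2, Cxcl3 and Cxcl10 lay below the median of every array, where expression is not established. Whether the matches bear on expression was not tested. Cxcl1 and Cxcl10 are shown as genes with matches whose level was not past the test, at chr5:90890995-90891244, plus strand, and chr5:92348890-92349139, minus strand, with capitals as before.
Cxcl1: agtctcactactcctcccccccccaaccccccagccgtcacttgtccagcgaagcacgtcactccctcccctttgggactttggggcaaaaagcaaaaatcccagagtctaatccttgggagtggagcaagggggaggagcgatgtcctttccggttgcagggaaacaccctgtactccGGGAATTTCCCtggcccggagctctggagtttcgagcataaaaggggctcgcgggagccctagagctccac
Cxcl10: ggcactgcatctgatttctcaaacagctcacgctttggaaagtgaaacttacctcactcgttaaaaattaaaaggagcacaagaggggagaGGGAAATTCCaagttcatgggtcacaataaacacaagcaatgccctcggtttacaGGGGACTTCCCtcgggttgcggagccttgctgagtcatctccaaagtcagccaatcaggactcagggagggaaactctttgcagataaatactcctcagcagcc
In both lines a run of capitals longer than 10 letters is made of matches that overlap.

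Of 9 homeostatic ligands with a probe set of their own, Cxcl12 and Cxcl13 rose, each on its brightest probe set alone. Of these 9, 0 fell (median -0.08), where 15.2% of all genes rose and 6.05% fell. Ccl19, Ccl21a and Ccl27b, also homeostatic, are outside this count because their probe sets are shared. The shared Ccl21 probe set gave -1.51 and passed limma's test over all probe sets. Cxcl14, a ligand of epithelia and fibroblasts, read 8.62, 8.61 and 8.44 in TNFαDes-/-, against 9.09, 8.68 and 8.58 in Des-/- hearts. Those are values of its brightest probe set, where Des-/- replicate 1 was high and the groups overlapped. The change of -0.23 ± 0.14 was not past limma's test (adjusted p = 0.312), while it was after quantile normalization (-0.40, adjusted p = 0.0267). On its other probe set the groups did not overlap. There the change of -0.52 ± 0.16 missed the threshold of limma's test over all probe sets (adjusted p = 0.0729). After quantile normalization that probe set passed (-0.64, limma adjusted p = 0.00828). Cxcl16, the membrane-bound ligand of Cxcr6, stood at 7.59 ± 0.09 in TNFαDes-/- and 7.39 ± 0.14 in Des-/- hearts, with overlap and no call. Cxcl17 stood at 5.53 ± 0.38 in TNFαDes-/- and 5.89 ± 0.40 in Des-/- hearts (SD, n = 3 each) and did not pass either. Ccl25, Ccl28 and Cxcl15 were below the median of every array. Ccl27a, read by a probe set of its own with a change of -0.17 ± 0.13, was above the median of 3 arrays.

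Of 8 CC ligands for monocytes and eosinophils, Ccl6 and Ccl9 rose and Ccl8 fell (median -0.10), against the same 15.2% and 6.05% of all genes. Ccl24, an eotaxin, averaged 6.21 ± 0.09 in TNFαDes-/- and 6.30 ± 0.19 in Des-/- hearts. Ccl11, the other eotaxin, read 4.74, 4.64 and 4.92 in TNFαDes-/-, against 5.22, 5.02 and 5.10 in Des-/- hearts. Those values straddle the array medians, and though they did not overlap the change of -0.35 ± 0.11 missed the threshold (limma adjusted p = 0.0566). Of the remaining CC ligands, Ccl4 (-0.21 ± 0.10), Ccl17 (0.08 ± 0.16) and Ccl1 (-0.25 ± 0.16) lay above some medians, and Ccl22 above none.

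Among receptors only Ccr2 passed, where 21.3% of all genes did, 30.1% of those above every median and 7.96% of the others. Of 9 CC receptors, Ccr2, Ccr6 and Ccr10 lay above the median of every array. Ccr6, the receptor of Ccl20 on lymphocytes, read 5.43, 5.24 and 5.22 in TNFαDes-/-, against 5.37, 5.82 and 5.83 in Des-/- hearts. Des-/- replicate 1 fell among the TNFαDes-/- arrays, and the change of -0.38 ± 0.14 (limma adjusted p = 0.0947) passed without that array (-0.53, adjusted p = 0.00638). Ccr10 averaged 5.52 ± 0.08 in TNFαDes-/- and 5.48 ± 0.01 in Des-/- hearts. Ccr3, Ccr4, Ccr7, Ccr8 and Ccr9 lay below the median of every array.

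Of 5 CXC receptors 0 passed, against the same shares of all genes. Cxcr4, the signalling receptor of Cxcl12, read 5.73, 5.07 and 5.54 in TNFαDes-/-, against 5.54, 4.90 and 4.96 in Des-/- hearts, with replicate 1 highest in both groups and a change of 0.31 ± 0.21 (limma adjusted p = 0.345). Cxcr3 averaged 5.69 ± 0.13 in TNFαDes-/- and 5.64 ± 0.21 in Des-/- hearts. Cxcr2, the neutrophil receptor (-0.34 ± 0.12, adjusted p = 0.0706), Cxcr5 and Cxcr6 (0.24 ± 0.10, adjusted p = 0.122) were below every array's median. So were Cx3cr1, the receptor of resident macrophages for Cx3cl1 (-0.05 ± 0.13), and Xcl1 and Xcr1, the ligand and receptor that link T cells with cross-presenting dendritic cells.

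All 4 atypical receptors lay above the median of every array. On their brightest probe sets 0 passed, where 30.1% of all genes above every median did. Ackr3, the scavenger of Cxcl12, read 9.74, 9.35 and 9.78 in TNFαDes-/-, against 10.49, 9.77 and 9.70 in Des-/- hearts. Des-/- replicate 1 was far above the rest, and the change of -0.36 ± 0.21 (limma adjusted p = 0.275) became a call after quantile normalization (-0.61, adjusted p = 0.011) and cyclic loess (-0.64, adjusted p = 0.0119). Ackr1, the venular and red-cell chemokine binder, averaged 6.0 ± 0.14 in TNFαDes-/- and 6.05 ± 0.09 in Des-/- hearts, and Ackr2, a scavenger of inflammatory CC ligands, 5.50 ± 0.04 in TNFαDes-/- and 5.34 ± 0.13 in Des-/- hearts (SD, n = 3 each).

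Over the 53 genes, 16 (30.2%) had groups that did not overlap, 10 higher and 6 lower in TNFαDes-/-, where 38.0% of all genes did, 24.3% higher and 13.7% lower.

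In gene order, the Ccl9 and Ccl6 pair were the only neighbouring members that both passed the test. Of 11 Ccl genes on chromosome 11, 2 rose, 1 fell and 8 did not pass, with changes of -0.35 to 0.25 among those 8. Ccl5 and Ccl3, the members on either side of the rising pair, stood at 0.25 ± 0.12 and -0.05 ± 0.15. On chromosome 5, Cxcl13 rose and the other 9 members did not pass, and on chromosome 9 Ccr2 fell and the other 11 members did not pass. Beside these counts, 21.3% of all genes passed, 15.2% higher and 6.05% lower.

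**Figure D4:**
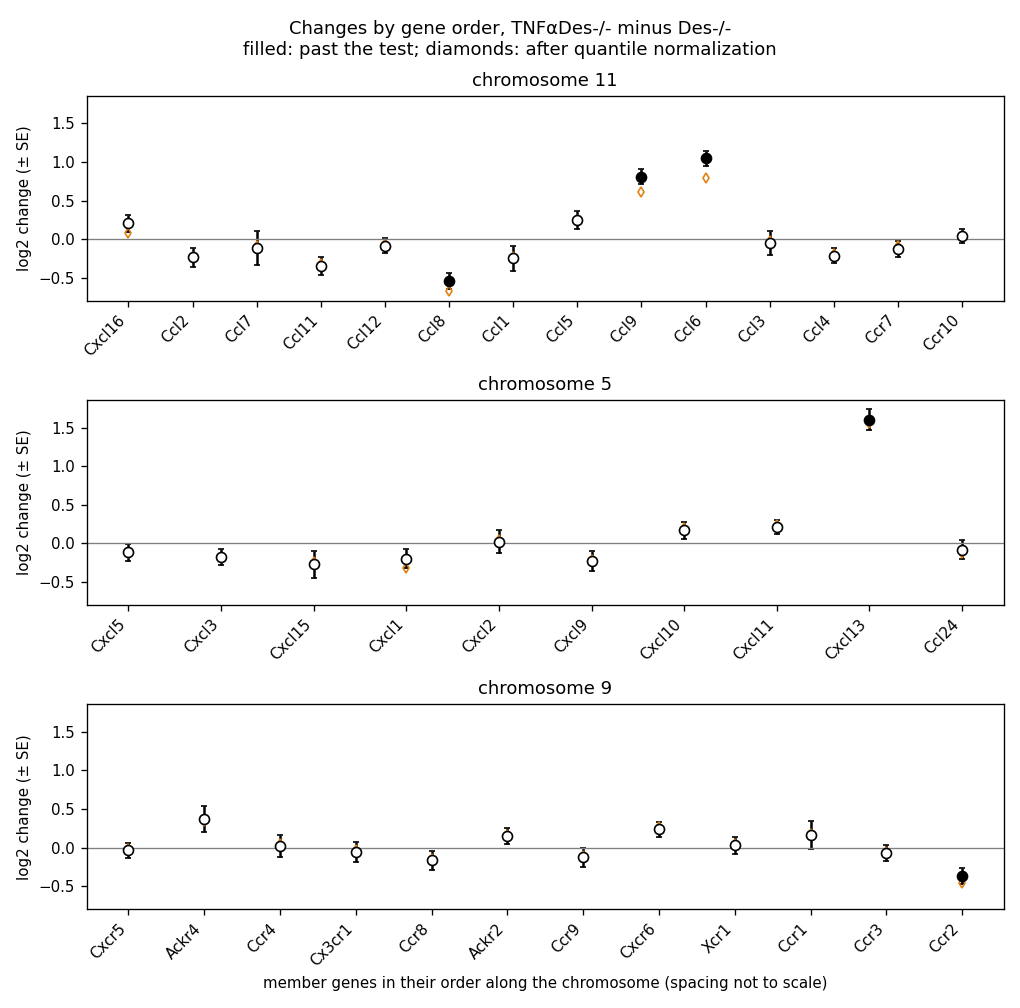
Log2 change (y axis, TNFαDes-/- minus Des-/-, with SE) of members in their order along chromosomes 11, 5 and 9, with spacing not to scale. Filled circles passed the test and diamonds are quantile-normalized values; the rises on chromosome 11 are those of Ccl9 (0.81) and Ccl6 (1.04), between Ccl5 and Ccl3.

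Of 25 measured genes that pass on chemokine receptor signals, 4 rose and 6 fell (median -0.0084), where 15.2% of all genes rose and 6.05% fell. Once arrays were quantile-normalized 1 rose and 7 fell, where 12.0% and 10.4% of all genes did. Grk5, a kinase that turns receptors off, rose by 1.78 ± 0.12 (SE, limma adjusted p = 6.73e-05; 1.57 after quantile normalization). Rgs1 and Rgs18, which shorten G protein signals in leukocytes, fell by 1.50 and 0.61 on the log2 scale, and Rac2, the leukocyte Rac that drives migration, by 0.89. In TNFαDes-/- hearts Rgs1 read 5.03, 5.09 and 4.83, near the array medians, so the size of its fall is uncertain. Rgs18 lay below the median of every array, where expression is not established. The G protein subunits Gnai2 and Gnai3 and the arrestin Arrb2 passed as deposited only (0.65, 0.42 and 0.43, and 0.29, 0.28 and 0.32 after quantile normalization). Against the same shares of all genes, of 12 leukocyte adhesion partners 0 rose and 3 fell, the integrin chain Itgb2 by 1.26, Icam2 by 0.85 and Pecam1 by 0.42 on the log2 scale.

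Of 9 measured relatives outside the symbol rule, 3 rose and 2 fell, where 15.2% and 6.05% of all genes did. Pf4, a CXC chemokine of platelets and macrophages, rose by 0.98 ± 0.12 (SE, limma adjusted p = 0.000822; 0.75 after quantile normalization), while Ppbp, a platelet chemokine, lay below every array's median. Mif, a cytokine that also binds chemokine receptors, read 11.75, 11.84 and 11.76 in TNFαDes-/-, against 11.55, 10.94 and 10.91 in Des-/- hearts. Des-/- replicate 1 lay nearest the TNFαDes-/- arrays, and the rise of 0.65 ± 0.17 was 0.29 after quantile normalization. The chemerin receptors moved apart, as Cmklr1 rose by 0.60 ± 0.14 and Ccrl2, which holds chemerin on the cell surface, fell by 0.79 on the log2 scale, and chemerin itself, Rarres2, fell by 0.45.

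Some markers of cells that make or receive chemokines moved with the groups, in both directions, and their part in the results above was not tested. Of 8 monocyte and macrophage markers, all above every median, 5 rose and 1 fell (median 0.53, and 0.35 after quantile normalization), where 23.0% and 7.16% of all genes above every median did. Their summed linear intensity was 8436 to 8777 in TNFαDes-/- and 5872 to 7469 in Des-/- hearts. Cd14 (1.75 ± 0.10), Cd163 (0.86 ± 0.18) and Csf1r (0.71 ± 0.15) were among the rises, at 1.56, 0.72 and 0.35 after quantile normalization, while Cd68 fell by 1.48 on the log2 scale. Of 5 dendritic cell markers 0 rose and 3 fell (2 after quantile normalization), where 15.2% of all genes rose and 6.05% fell. The sums were 203 to 219 in TNFαDes-/- and 468 to 485 in Des-/- hearts, a gap that is mostly Itgax. Itgax, the integrin Cd11c, fell by 2.77 and Zbtb46 by 0.67, and Xcr1 and Cd209a lay below every median. In TNFαDes-/- hearts Itgax read 4.99, 5.44 and 5.35, near the array medians. Of 5 B cell markers 1, Ighm, rose (1.30 ± 0.10), where 15.2% of all genes rose. The B cell sums, 402 to 452 in TNFαDes-/- and 224 to 230 in Des-/- hearts, are mostly Ighm. The other 4 markers had changes of -0.12 to 0.28, none past the test, and Cd79b and Ms4a1 lay below every median.

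For the marker counts that follow, the shares over all genes were 15.2% higher and 6.05% lower. Among genes above every median they were 23.0% and 7.16%. Of 6 neutrophil markers none lay above every median, and S100a9, Mpo and Camp lay above none. S100a8 (0.86 ± 0.09) and S100a9 (0.54 ± 0.10) rose, and the sums were 162 to 172 in TNFαDes-/- and 135 to 169 in Des-/- hearts. Of 9 T and NK cell markers 0 passed and 6 lay below every median, with sums of 301 to 339 in TNFαDes-/- and 281 to 352 in Des-/- hearts. Of 7 eosinophil and mast cell markers 0 passed (sums 181 to 192 in TNFαDes-/-, 162 to 195 in Des-/-). Of 5 platelet markers Pf4 alone rose. The platelet sums (1150 to 1253 in TNFαDes-/-, 718 to 783 in Des-/-) are mostly Pf4, which macrophages also make, and the other 4 markers had changes of -0.15 to 0.02. Of 3 erythroid markers Alas2 fell by 1.75 on the log2 scale (sums 91.7 to 103 in TNFαDes-/-, 215 to 342 in Des-/-). Endothelium, a source of Cxcl12 and Cx3cl1, had 0 rises and 3 falls among 6 markers (sums 1938 to 1974 in TNFαDes-/-, 2240 to 2927 in Des-/-), the third beside Pecam1 and Tie1 (-0.57 ± 0.12) being Tek (-0.49 ± 0.11). Of 6 fibroblast markers 2 rose, Dcn (0.93 ± 0.15, and 0.58 after quantile normalization) and Col1a2 (0.67 ± 0.11, and 0.30 with the call lost, limma adjusted p = 0.133), with sums of 21167 to 22395 in TNFαDes-/- and 12294 to 17249 in Des-/- hearts. Of 8 cardiomyocyte markers, all above every median, 1, Nppa, rose, with sums of 182667 to 186818 in TNFαDes-/- and 114246 to 183571 in Des-/- hearts. All sums are of deposited values, whose top end differed between arrays. The median changes of the fibroblast and cardiomyocyte lists were 0.21 and 0.42 as deposited. They were 0.02 and -0.09 on quantile-normalized values. After quantile normalization Nppa stood at 0.43, and the fibroblast markers Col1a1 (-0.28) and Lum (-0.36) and the cardiomyocyte markers Tnni3 (-0.29) and Ryr2 (-0.38) passed as lower.

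**Figure D5:**
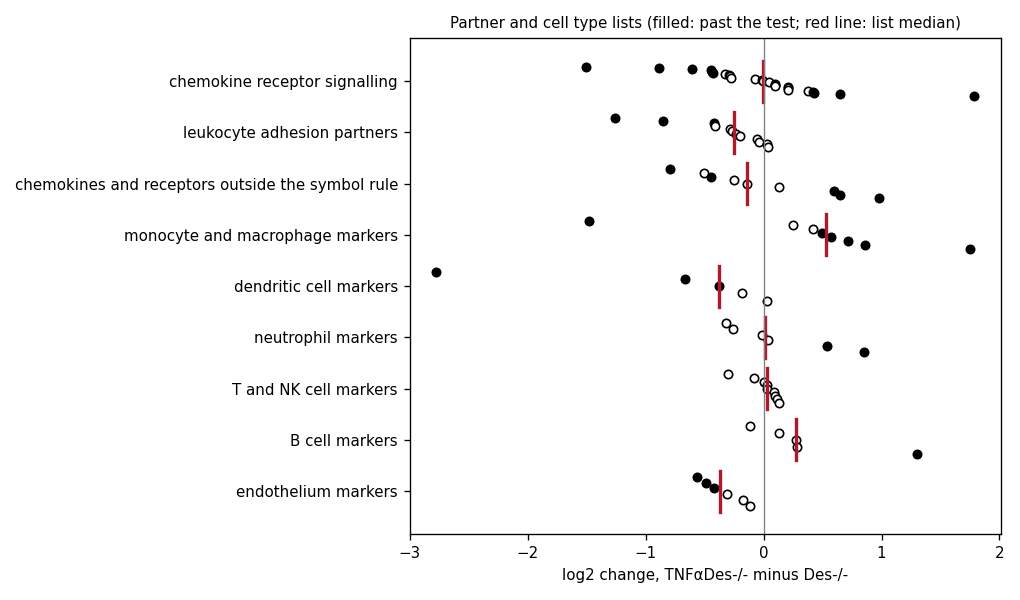
Log2 change (x axis, TNFαDes-/- minus Des-/-) of each gene in lists of signalling partners, relatives and cell type markers (rows), filled where past the test, with the list median in red. The points of monocyte and macrophage markers run from -1.48 (Cd68) to 1.75 (Cd14), and dendritic cell markers reach -2.77 (Itgax).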

How the data were processed

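RNA of hearts was measured on 6 Affymetrix arrays, 3 per group, with groups and replicate numbers from the sample titles. The authors deposited log2 values, made with RMA according to the submitters' processing notes (no version stated). The sources used here do not say whether its normalization spanned all arrays. The number of arrays limits the precision.

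Of 45037 probe sets other than controls, 34945 have 1 symbol, 932 several and 9160 none in the platform annotation. The last 2 kinds name no gene. Each of 18193 genes took its probe set with the highest mean. Groups were compared with limma 3.58.1 (R 4.3.3) and Benjamini-Hochberg adjustment over all genes, threshold 0.05, and the fit was tested on simulated data. Intervals are 95% from the same fit. Members and lists were chosen with earlier results of these data known. Named genes are members past the test, members above every array median, and up to 4 genes past the test per other list; others were added after their values were seen. Xcr1 was taken out of the list of relatives, as it is a member. Alternatives covered array scale, variance model, array weights, replicate block, probe set choice and arrays left out. Promoter sequences are RefSeq GRCm38.p6. Figures used matplotlib 3.10.9.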

Additional observations from a re-analysis of the deposited data

How the results depend on the processing

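The rises of Ccl6, Ccl9 and Cxcl13 and the fall of Ccl8 kept their direction and their side of the threshold under every alternative run on the chosen probe set, and 4 members rose in each setting other than array weights (7) and the mean of all probe sets (5). Members lower in TNFαDes-/- numbered 2, against 4 after quantile normalization or cyclic loess, 12 with array weights, and 1 with median centring, with the replicate block or with Des-/- replicates 2 and 3 left out together; with 1 array left out they numbered 1 to 3, and risers 4 in each case. Without Des-/- replicate 1 it was 3. The mean of all probe sets gave 3. The Cxcl12 rise turned to -0.43 (limma adjusted p = 0.0256) and -0.44 (0.0504) on its other probe sets. Over all genes, 3869 passed (2768 higher, 1101 lower). Array weights gave 8414 (5501 and 2913), and leaving out Des-/- replicates 2 and 3 at once gave 1587 (883 and 704), with the lone Des-/- array assumed to vary like the TNFαDes-/- arrays. Lower calls numbered 1896 on quantile-normalized values and 1995 after cyclic loess. Quantile scaling moved the share of higher calls to 53.6%, against 71.5% as deposited. With 1 array left out the counts ran from 2068 to 5814 (higher 1475 to 4257, lower 557 to 1557), at 2075, 2068, 2232 and 2220 without TNFαDes-/- replicate 1, TNFαDes-/- replicate 3, Des-/- replicate 2 and Des-/- replicate 3, and 5814 without Des-/- replicate 1. Members above every array's median numbered 22, and 13 were above every 60th percentile. Replicate numbers are shared by the groups. Between arrays of the same number, deviations from the group mean correlated at 0.25, 0.31 and -0.30. With 3 arrays per group these values cannot decide whether arrays of a number were handled together, and the main fit had no block. The replicate block gave 4278 genes, 4 members higher and 1 lower, and Ccr2 at a limma adjusted p of 0.0592. The cause of these moves was not tested. Of 392 recomputed values of 22 named members, 369 stayed on their side of the threshold, 10 lost a call, 11 gained one and 2 reversed a called change; 14 of the 369, none past the test, had the other sign (Ackr1, Ackr2, Ccl24, Cx3cl1, Cxcl1, Cxcl17 and Cxcr3).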
